A study of Mus musculus with 840 samples.

Results

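Mammary cells with active Notch1 that carried surface levels between those of basal and luminal cells were described here as intermediate GFP+ cells. They were sorted singly by FACS from a gate of medium EpCAM and medium CD49f, as cells with nuclear GFP, and were sequenced with Smart-seq2, which reads full-length transcripts of 1 cell per well. Of 744 sequenced cells, counted without the repeat run of 96 cells, 6, 34, 30, 22, 60, 66 and 66 on the 7 plates used here carried the labels intermediate and GFP+. After the filters on reads, genes, mitochondrial share, Epcam and Dcpp1, 120 such cells were kept from SMACre mice and 63 and 61 from the K5Cre plates, out of 624 kept cells of all gates. The Dcpp1 filter, at most 10 reads of this salivary gland gene, removed 23 intermediate GFP+ cells, of which the lowest had 11 reads and 18 had over 100 reads. Among the kept cells, 21 held 2 to 10 Dcpp1 reads.

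All mice carried a Rosa26 allele from which Cre releases N1ICD, the active intracellular part of Notch1, together with nuclear GFP. GFP- cells from the sorts served as cells without visible recombination. Tamoxifen was given at 3 weeks of age, and the mammary glands were taken after a chase. Cre was driven by the promoter of smooth muscle actin (SMACreERT2/N1ICD) or of keratin 5 (K5CreERT2/N1ICD), both of which are active in basal cells, and the K5 promoter is also active in skin. The SMACre plates were plate 1 (1 week of chase, 4 intermediate GFP+ cells), plate 2 (3 weeks, 16 cells), plate 3 (3 weeks, 21 cells), plate 4 (4 weeks, 19 cells) and plate E (3 weeks, 60 cells). The K5Cre plates were plate G (3 weeks, 63 cells) and plate L (61 cells), for which the annotation gives 3 weeks in 1 column and 6 weeks in another. The shorter chase is the one in the study's own list of sorted plates. For plates 1 to 4, however, that list gives 6, 34, 30 and 22 as the luminal GFP+ counts, and other counts as intermediate. For plate 4 its intermediate count is 51, which is the number of luminal GFP+ cells kept there by the annotation. The annotation labels 6, 34, 30 and 22 cells of these plates intermediate, and it was followed here. Plates 1 and 2 made up batch 1, plates 3 and 4 batch 2, and plates E, G and L batch 3. Each plate came from its own mice, 1 or 2 pooled by the annotation, and served as the replicate, so that a p-value measures the spread between plates. On 6 plates (1, 2, 3, 4, G and L) basal GFP+ cells (51, 6, 28, 16, 5 and 6 cells) and luminal GFP+ cells (9, 18, 18, 51, 6 and 5 cells) were kept beside them, while plate E held neither. As most intermediate but few basal GFP+ cells came from batch 3, shares over all cells of a gate mix plates in unlike proportions, so that gates are set side by side by plate where the plates differ. A plate 5 held 81 luminal GFP+ cells and no intermediate cells, and it enters only the shares of luminal GFP+ cells. Intermediate GFP- cells were kept only on plates G and L, with 6 cells on each.

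The mammary epithelium has an outer layer of basal cells, which contract during lactation and express Krt5, Krt14, Trp63 and smooth muscle actin (Acta2). Its inner layer of luminal cells is lined by the keratins Krt8 and Krt18 and by claudins of the tight junction, and falls into hormone receptor negative (HRneg) cells, which include the milk-forming progenitors with Kit and Elf5, and hormone receptor positive (HRpos) cells with Esr1 and Pgr. Notch signalling is known to favour the luminal fate, and foetal mammary cells are known to carry basal and luminal keratins together.

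The intermediate GFP+ cells had a median of 1325062 reads on genes (116129 to 3363298), with 440708 in batch 1, 411691 in batch 2 and 1485597 in batch 3, so that detection in single cells is given after each cell was thinned to 100000 reads, where 1 read is 10 CPM. Notch1, the gene targeted here, was read in every group. Its reads from the transgene and from the own gene cannot be told apart, and its summed level was 280, 326, 606, 524, 316, 390 and 165.3 CPM in intermediate GFP+ cells of plates 1, 2, 3, 4, E, G and L, against 223.1 and 447 CPM in intermediate GFP- cells of plates G and L. The cells included some with markers of other cell types. Of the skin and sebaceous list, at least 2 of 12 genes reached 5 thinned reads in 81 cells (33.2%, 95% CI 27.3 to 39.5, exact Clopper-Pearson, counting error only). Krt79 of this list is also among the genes that the study chose for late intermediate cells. The cells with 2 genes of the list were 19 of 60, 22 of 63 and 39 of 61 on the batch 3 plates E, G and L, but 1 of the 60 cells on plates 1 to 4. Basal GFP+ cells held them in 1 of 5 and 3 of 6 on plates G and L and in none on plates 1 to 4, and luminal GFP+ cells in 2 of 9 on plate 1, 1 of 18 on plate 2 and none on the other plates. All 5 endothelial genes reached that level in 1 of the 4 cells on plate 1 and in 2 of the 16 on plate 2, although the sort was set to leave out cells with CD31, CD45 or Ter119. Markers of immune cells (3 cells), fibroblasts (4), salivary gland (4) and pericytes (1) were rarer, no cell held 2 fat cell markers (its upper limit by the exact interval is 1.5%), and with all lists 95 cells (38.9%) held 2 such markers. The salivary gland list includes Dcpp1, and the filter on that gene had removed 23 intermediate GFP+ cells. The low salivary count, and the comparisons of that list below, were thus partly set by the filter. None of the tested genes of these lists (5 fibroblast, 5 endothelial, 6 immune, 4 pericyte, 2 fat cell, 7 salivary gland and 8 skin genes) passed edgeR against basal or luminal cells, and their median log2 differences to basal cells were 2.31, 2.46, 3.08, -1.88, -1.57, 3.51 and 2.15 in that order and to luminal cells 6.12, 8.56, 4.18, 2.22, 2.86, -3.27 and 1.79. Over all lists, 3 of 9, 7 of 18 and 4 of 18 luminal GFP+ cells held 2 such markers on plates 1, 2 and 3. None did on plates 4, G and L. The salivary genes Bpifa2 and Amy1 had 6260 and 1324 CPM in luminal GFP+ cells summed over the 6 shared plates. In intermediate GFP+ cells they had 7.97 and 3.93 CPM, whereas Dcpp2 and Dcpp3 were higher there (22.7 and 20.9 against 0.0535 and 0.624 CPM). The main results were also computed without the 95 intermediate cells and their like in the other gates, an alternative chosen after seeing the data.

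The keratins of both layers were found together in most intermediate GFP+ cells, at a share near that of basal GFP+ cells. Krt5 or Krt14 and Krt8 or Krt18, each with at least 10 thinned reads, were found together in 70.1% of the cells (95% CI 63.9 to 75.8). Only the basal keratins passed in 58 cells, only the luminal ones in 12 and neither in 3. By plate the co-detection was 25%, 68.8%, 90.5%, 89.5%, 75%, 79.4% and 45.9% on plates 1, 2, 3, 4, E, G and L. It was found in 85 basal (75.9%, 66.9 to 83.5) and 25 luminal (13.3%, 8.79 to 19) GFP+ cells. Over the 6 shared plates the mean share was 66.5% ± 26.2 (SD) in intermediate, 74.7% ± 13.7 in basal and 24.5% ± 13.2 in luminal GFP+ cells. The intermediate share was 8.21 percentage points lower than the basal one (SD of the differences 20.6; lower on 4 of 6 plates; two-sided exact permutation test, p = 0.406) and 41.97 points higher than the luminal one (SD 34.2; higher on 5 of 6 plates, p = 0.0625). The smallest p that 6 plates allow is 0.0312. Unlabelled cells give the background of these reads. In luminal GFP- cells, Krt5 reached 10 reads in 3 of 51 and Krt14 in 5 of 51, whereas in basal GFP- cells Krt8 did so in 12 of 17 and Krt18 in 6 of 17, so that co-detection was found in 12 of 17 unlabelled basal cells as well.

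In the summed cells of a plate, Krt5 of intermediate GFP+ cells lay within the range of basal cells on all 7 plates and Krt14 on 4 of 7, and Krt18 and Cldn3 lay between the basal and the luminal gate on every shared plate. Krt5 (chromosome 15, 101707070 to 101712898, GRCm38) had 863, 1281, 1204, 1828, 1249, 1041 and 391 CPM in intermediate GFP+ cells of plates 1, 2, 3, 4, E, G and L. In basal GFP+ cells of plates 1, 2, 3, 4, G and L it had 869, 2070.1, 898, 1203, 628 and 1.12 CPM, and in luminal GFP+ cells 169.4, 2.33, 22.8, 68.9, 0.136 and 0.106 CPM. The intermediate values lay above all luminal values and around most basal ones, and the basal cells of plate L stood apart with almost no Krt5. Krt14 (chromosome 11, 100203162 to 100207548) had 750, 4363, 6172, 6655, 3116, 3589 and 3396 CPM in the intermediate gate of these plates, 1602 to 5794 CPM in the basal and 18.9 to 451 CPM in the luminal gate. The 4 cells of plate 1 were low in Krt14 and Krt17 (124.2 CPM, against 1310 to 4398 CPM on the other 6 plates), but not in Krt5. Trp63, the transcription factor of basal epithelia, ranged from 58.7 to 402 CPM in intermediate, from 110 to 497 CPM in basal and from 0 to 13.5 CPM in luminal GFP+ cells.

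Krt8 (chromosome 15, 101996698 to 102004482), a keratin of luminal cells, had 189.7, 449, 569, 265.2, 629, 493 and 318 CPM in intermediate GFP+ cells of plates 1, 2, 3, 4, E, G and L, against 278.8, 268.2, 389, 249.2, 144.4 and 144.6 CPM in basal and 1263 to 3767 CPM in luminal GFP+ cells. Its partner Krt18 had 995, 806, 605, 240, 395, 419 and 422 CPM, against 69.7 to 380 CPM in basal and 1665 to 6202 CPM in luminal GFP+ cells. Cldn3 (chromosome 5, 134986214 to 134987472), a claudin of luminal tight junctions, had 218.1, 110.4, 79.6, 38.1, 52.8, 29.4 and 20.9 CPM, with 0.203 to 22.9 CPM in the basal and 539 to 1378 CPM in the luminal gate. For Krt18 and Cldn3 the intermediate sums were above the basal sums of the same plate on 6 of 6 plates, and for Krt8 on 5 of 6, while all 3 were below the luminal sums on every shared plate. Foxc1, a transcription factor of basal and HRneg luminal cells, had 25.7, 45.6, 63.8, 25.6, 64.1, 67.8 and 67.2 CPM. It was 0 to 54.2 CPM in basal and 29.1 to 98.7 CPM in luminal GFP+ cells, so that it was above basal on 6 of 6 plates and overlapped the luminal gate.

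Counted per cell, intermediate GFP+ cells held more luminal genes than basal cells on every plate, while a difference in basal genes was not detectable with 6 plates. The 12 basal epithelial genes were detected at 4.0, 7.56, 8.86, 9.16, 8.22, 8.92 and 6.97 genes per cell on plates 1, 2, 3, 4, E, G and L. On the 6 shared plates the mean was 7.58 ± 1.96 (SD) in intermediate, 8.58 ± 1.24 in basal and 2.63 ± 0.612 in luminal GFP+ cells. The difference was -0.999 ± 1.71 (SD) to basal cells (lower on 4 of 6 plates, two-sided exact permutation test, p = 0.219) and 4.95 ± 2.44 to luminal cells (higher on 6 of 6 plates, p = 0.0312, the smallest possible). Of the 28 luminal genes (keratins, junctions and HRneg genes), 7.75, 8.62, 7.95, 7.37, 10.4, 9.57 and 8.13 were detected per intermediate GFP+ cell on these plates. The mean over the 6 shared plates was 8.23 ± 0.776, against 6.43 ± 0.573 in basal and 18.3 ± 1.68 in luminal GFP+ cells. It was 1.81 ± 0.455 genes above basal cells (6 of 6 plates, p = 0.0312 in the exact permutation test) and lay below luminal cells (-10.03 ± 1.62 genes, lower on 6 of 6 plates, p = 0.0312). Without cells that held markers of other cell types these differences were 2.14 and -9.79 genes, with the same p. Both lists were written with earlier results of these data known. Luminal members such as Kit, Aldh1a3, Plet1, Trf, Ltf and Thsd4 were also named by the study from these cells. The p-values are therefore not independent evidence.

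Set against the other gates of their own plate, most intermediate cells were neither at the luminal nor far from the basal level. Of the cells on the 6 shared plates, 7 reached the lower quartile of luminal genes in the luminal GFP+ cells of their plate (11 to 20 genes), 73 were at or below the upper quartile of the basal GFP+ cells (6.75 to 8.0 genes), and the others lay between the bounds. Between them were 45 of 63 cells on plate G and 38 of 61 on plate L, but 7 of 21 on plate 3 and 7 of 19 on plate 4. In 76 cells the luminal genes were above the basal cells' upper quartile while the basal genes were still at or above the basal cells' lower quartile. They were 0, 5, 6, 7, 24 and 34 cells on plates 1, 2, 3, 4, G and L. That lower quartile was 5.0 basal genes on plate L, against 7.0 to 10.0 on the others. On plates G and L the quartiles rested on 5 and 6 basal cells. How many basal cells met both bounds was not counted. At least 15 luminal genes were found in 11 of all cells (4 on plate E, 3 on plate L, 2 on plate 2, 1 each on plates 3 and G), with a median of 5.0 basal genes (2 to 12).

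Much of the luminal signal of the intermediate gate came from few cells, as did the smaller one of the basal gate. Thinned reads of Cldn3 were found in 54 cells (14.8 to 50% by plate), against 16.7 to 21.6% of basal and 77.8 to 100% of luminal GFP+ cells by plate, and 8 cells held 50% of its reads in the intermediate gate. For Kit, a receptor of luminal progenitors, 3 cells held 50% of the reads, and for Aldh1a3, an enzyme of the same progenitors, 2 cells did. In luminal GFP+ cells 49, 37 and 17 cells held 50% of the Cldn3, Kit and Aldh1a3 reads. Krt18 was more even, with 13 cells of the intermediate gate holding 50% of its reads, and Krt8 with 22, while 48 cells did so for Krt5 and 56 for Krt14. Foxc1 was spread more widely, with a read in 50%, 25%, 38.1%, 31.6%, 63.3%, 65.1% and 57.4% of intermediate GFP+ cells of plates 1, 2, 3, 4, E, G and L and, as background, in 7 of 17 basal GFP- cells. On plates 1, 2, 3, 4, G and L it was read in 11 of 51, 0 of 6, 6 of 28, 4 of 16, 3 of 5 and 1 of 6 basal and in 6 of 9, 11 of 18, 15 of 18, 29 of 51, 2 of 6 and 4 of 5 luminal GFP+ cells. The intermediate share was thus above the basal one on all 6 plates, by little on plates 4 and G, and below the luminal one on 5, which was not tested.

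The spread of luminal genes among cells of a plate was smaller in the intermediate than in the luminal gate. The SD among cells was 3.28 ± 1.14 genes in intermediate GFP+ cells (mean and SD over 6 plates), 2.23 ± 0.714 in basal and 5.34 ± 1.30 in luminal GFP+ cells. It was lower than in luminal cells on 6 of 6 plates by 2.05 genes (two-sided exact permutation test, p = 0.0312) and above basal cells on 4 of 6 plates (1.06 ± 1.29 genes, p = 0.125). For basal genes the SD was 2.26 ± 0.628 in intermediate, 2.29 ± 0.655 in basal and 1.54 ± 0.511 in luminal GFP+ cells (p = 0.969 and p = 0.0938, exact permutation tests).

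Against luminal GFP+ cells, intermediate GFP+ cells were higher in basal keratins, contractile proteins and matrix genes, and lower in HRneg luminal genes. With the quasi-likelihood test of edgeR on the summed counts of each gate and plate, with the plate as a block, 150 of 19120 genes passed (0.785%), 0.659% of genes being higher and 24 genes (0.126%) lower (at a Benjamini-Hochberg adjusted p under 0.05). An unadjusted p under 0.05 was found for 2032 genes, and DESeq2 called 1553 genes (5.32%), 1057 higher (3.62%) and 496 lower (1.7%). Of the higher genes, 92 were higher on all 6 plates, and all 24 lower genes were lower on all 6, where 2.45% and 3.66% of all tested genes were higher or lower on every plate. Plates 2, 3 and 4 weighed most: without plate 2, 3 or 4, 27, 57 and 86 genes passed, of which 26, 51 and 78 were among the 150. Within batches 1 and 2, 46 genes passed (31 of them among the 150), on the K5Cre plates of batch 3, 24 (all higher, 12 among the 150), and without the cells that held markers of other cell types, 95 of the 150 passed. With at most 1 Dcpp1 read per cell, which is the limit in the study's methods, most calls were lost. In that fit 38 genes passed, of which 33 were among the 150. No gene of the 150 that was still tested changed its direction in any of these fits, which share cells with the main fit. Fewer genes were tested in some, with 13680 in batches 1 and 2 and 15783 on the K5Cre plates. How many of the 150 were still among them was not counted.

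Of the 12 basal epithelial genes, 6 rose and none fell against luminal cells, with a median log2 difference of 4.66, against 0.10 over all genes. The 6 were Krt5 (log2 difference 6.73 ± 1.42 SE, adjusted p = 0.0317, edgeR), Krt14 (5.0 ± 0.69, adjusted p = 0.00393, edgeR), Trp63 (5.18), the cytolinker Dst (2.15), the Wnt inhibitor Sfrp1 (7.66) and the Notch ligand Jag2 (5.72). The Krt5 call was lost without plate 2, 3, 4 or G (adjusted p 0.0564 to 0.115, edgeR), whereas that of Krt14 held without any 1 plate. Of the 12 smooth muscle contractile genes, 6 rose (median log2 difference 4.59). These were Acta2 (4.50 ± 0.89 SE, adjusted p = 0.0236, edgeR; lost without plate 2 or 3), Actg2, the calponin Cnn1 (6.18), myosin light chain kinase Mylk (5.29), Tagln (4.70) and tropomyosin Tpm2 (2.55). Acta2 had 90.7, 1308, 515.7, 1444, 127.8, 347 and 224.9 CPM in intermediate GFP+ cells of plates 1, 2, 3, 4, E, G and L. It had 3027, 3129, 2625, 7999, 506.1 and 325 CPM in basal and 19.5, 10.9, 56.1, 471, 12.9 and 0.106 CPM in luminal GFP+ cells of the shared plates. On each shared plate the order was basal, intermediate, luminal. Of the 18 extracellular matrix genes, 7 rose (median 2.98), among them Sparc (6.36), the fibrillin Fbn1 (7.56), perlecan Hspg2 (3.28) and type IV collagen Col4a2 (3.13).

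Of the 16 HRneg luminal genes, 5 fell against luminal GFP+ cells, namely Kit (-5.79 ± 1.17 SE, adjusted p = 0.0275, edgeR), Aldh1a3 (-6.83), the transcription factor Elf5 (-7.64), the water channel Aqp5 (-5.25) and Wfdc18 (-5.72), with a median of -3.94 over the list. Kit had 0.458, 33.7, 8.40, 5.29, 8.73, 1.34 and 19.9 CPM in the intermediate gate of plates 1, 2, 3, 4, E, G and L, and 224.97 to 760 CPM in luminal GFP+ cells. Elf5, which drives alveolar differentiation, had 0 to 6.495 CPM in intermediate and 55.9 to 77.1 CPM in luminal GFP+ cells, without overlap. Foxc1 (-0.41), lipocalin Lcn2 (-0.68) and Plet1 (-1.90) of the same list did not pass. Of the 12 luminal keratin and junction genes, Krt8 (-2.50 ± 0.36, adjusted p = 0.00506, edgeR) and Cldn3 (-3.92 ± 0.83, adjusted p = 0.0328, edgeR) fell, and the median was -2.67. Krt18 was -2.65 ± 0.61 and just failed (adjusted p = 0.0518, edgeR), and the Cldn3 call was lost without plate 2, 3, 4 or G, as was that of Kit. Epcam also fell (-1.11), which follows the protein the gate was set on, and is no independent result.

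The largest differences to luminal cells that went the same way on every plate were in genes that luminal cells nearly lacked. The homeobox gene Meox1 had 32.997, 37.7, 6.14, 30.1, 2.15, 1.09 and 0.83 CPM in intermediate GFP+ cells of plates 1, 2, 3, 4, E, G and L and no read in luminal GFP+ cells of the 6 shared plates, at least 68.7-fold higher against a floor of 3 reads over that group (adjusted p = 0.0457, edgeR, lost without plate 1, 2, 3 or 4). Npr1, the receptor of atrial natriuretic peptide, had 15.4 to 86.2 CPM and 1 luminal read (ratio 1575, exact interval 282.5 to 62210, counting error only; adjusted p = 9.96e-05, edgeR). The protocadherin Pcdh7 had 6.53 to 47.7 CPM and 2 luminal reads (ratio 430.4, 119.1 to 3556), and Sncg had 0.775 to 52.7 CPM and 2 luminal reads (ratio 184.3, 50.91 to 1523). Both calls and that of Npr1 held without any 1 plate. Sparcl1, a matrix protein, had 555 CPM on plate 1 and 94.4 CPM on plate 2, where the cells with endothelial genes lay, and 1.63 to 22.5 CPM elsewhere, and its call was lost without plate 1, 2, 3 or L. The calls of the endothelial genes Selp, Sele and Ackr1, chosen here after their values were seen, rested on plates 1 and 2, with 198.9 and 412 CPM of Selp there and 0 to 3.23 CPM on the other 5 plates. On the other side, Hp (-11.15), Atp10b (-9.16), Cytip (-7.88), Elf5 and the unnamed gene ENSMUSG00000118672 (-9.18) were lowest. Haptoglobin, the product of Hp, had 0 to 4.27 CPM in intermediate and 7.64 to 266.4 CPM in luminal GFP+ cells.

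Against basal GFP+ cells, no gene passed the test. With edgeR, 0 of 19120 genes passed (0.0%), 655 had an unadjusted p under 0.05, and DESeq2 called 586 genes (1.91%), of which 457 (1.49% of genes) were higher and 0.421% of genes lower. Without plate 1 or without plate G, 2 genes passed, and with no filter on low counts 41 were higher and 5 lower. The values nevertheless lay on 1 side for luminal genes, though not for these alone. Endothelial (5 of 5 above 0, median 2.46), immune (6 of 6, 3.08) and skin genes (7 of 8, 2.15) did the same. So did cell cycle genes (14 of 16, 1.405), while pericyte (1 of 4) and fat cell genes (0 of 2) did not. A shift above basal cells was thus not particular to luminal genes. Of the 12 luminal keratin and junction genes 11 had a log2 difference above 0 (median 1.52, against 0.15 over all genes, of which 57.4% were above 0), and 4 were higher on all 6 plates, against 1.27% of all genes. Cldn3 was 2.81 ± 0.81 (SE; unadjusted p = 0.00286, adjusted p = 1.0 in edgeR, adjusted p = 0.0231 in DESeq2) and Krt18 was 1.47 ± 0.58. The tight junction gene Cgn, with 0 to 20.2 CPM in intermediate and 0 to 2.64 CPM in basal GFP+ cells, was 3.68 ± 0.92 and was chosen after its values were seen, as were Mlph, Krt6a, Aqp5 and Cited1 below. Of 16 HRneg genes 14 were above 0 (median 1.32) and 1 was higher on all 6 plates, with Kit at 3.50 ± 1.36 and Foxc1 at 1.71 ± 0.78.

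The lowest edgeR p-values against basal cells were found for genes that basal cells nearly lacked, among them endothelial genes. Selp had the lowest (unadjusted p = 1.33e-05, adjusted p = 0.255 in edgeR and 0.844 in DESeq2), with Ackr1 (unadjusted p = 5.44e-05, edgeR) and Sele (0.000133) close behind. Like Selp, these 2 lay on the plates of the cells with endothelial genes, Ackr1 with 1958 and 177.1 CPM and Sele with 445 and 206.9 CPM in intermediate GFP+ cells of plates 1 and 2, and neither had a read on the other 5 plates. Mlph, a carrier of secretory granules and melanosomes, had 117.8, 22.9, 30.8, 0.136, 2.44, 6.45 and 5.83 CPM in intermediate GFP+ cells of plates 1, 2, 3, 4, E, G and L, against 0 to 0.766 CPM in basal and 59.6 to 264.25 CPM in luminal GFP+ cells (log2 difference to basal 6.99 ± 1.24 SE, unadjusted p = 2.74e-05, adjusted p = 0.262 in edgeR and 3.53e-07 in DESeq2). Its intermediate sums were above the basal ones on 6 of 6 plates and below the luminal ones on 6 of 6. Krt6a, a keratin of stressed and ductal epithelia, had 0, 22.3, 50.3, 18.98, 633, 363 and 235.7 CPM in the intermediate gate of these plates (6.47 ± 1.42). Aqp5 was 6.07 ± 1.34 and Cited1 8.21 ± 1.85 above basal cells, with 50% of the Cited1 reads in 3 cells.

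Contractile genes pointed the other way. None of the 12 was above 0 against basal cells, with a median log2 difference of -1.19. Acta2 was -1.70 ± 0.78 (lower on 6 of 6 plates, adjusted p = 1.0, edgeR), Tpm2 -1.06, Tagln -1.43 and Actg2 -2.62. At least 10 thinned Acta2 reads were found in 25%, 75%, 85.7%, 89.5%, 31.7%, 60.3% and 27.9% of intermediate GFP+ cells of plates 1, 2, 3, 4, E, G and L. In basal GFP+ cells of plates 1, 2, 3, 4, G and L the share was 88.2%, 100%, 96.4%, 93.8%, 60% and 50%, in luminal GFP+ cells 0 to 11.1% by plate, and in luminal GFP- cells, as background, 1 of 51. The intermediate share was below the basal one on 5 of 6 plates and like it on plate G, where 5 basal cells were kept. Extracellular matrix genes had a median of -0.74 with 2 of 18 above 0, and Sparc was lower on 6 of 6 plates (-0.67 ± 0.69). The basal epithelial genes lay around 0 (median -0.07, 4 of 12 above 0), with Krt14 at 0.17 ± 0.55 and Krt5 at 1.12 ± 1.14. These 2 turned in sign between fits, Krt5 to -0.009 within batches 1 and 2 and Krt14 to -0.145 without plate L.

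Within the gate, the cells fell into kinds by Krt5 and Krt14. At least 10 thinned reads of both were found in 70.1% of cells (63.9 to 75.8), Krt14 with 1 to 9 Krt5 reads in 12, Krt14 with no Krt5 read in 41 (16.8%, 12.3 to 22.1), and under 10 Krt14 reads in 20 (8.20%, 5.08 to 12.4). The cells with Krt14 and no Krt5 read were 32 of the 61 on plate L (52.5%, 39.3 to 65.4), 4 of 63 on plate G, 4 of 60 on plate E and 1 of 16 on plate 2, with none of 4, 21 and 19 on plates 1, 3 and 4. On plate L they were not shallow, with a median of 1682984 reads against 1561710 in cells with both keratins, and their Krt14 was 2425 against 4360.0 CPM in the median. Basal GFP+ cells of plate L were of the same kind in 5 of 6, and of the 5 on plate G in 1, with none on plates 1 to 4. No intermediate GFP- cell (0 of 12, which allows a share of up to 26.5% by the exact interval) and 2 of 17 basal GFP- cells were of this kind.

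On plate L, cells with Krt14 and no Krt5 read held more fat synthesis genes, more Krt79 and fewer basal genes in the median than cells with both keratins. As 32 of the 41 cells were on plate L, they were set beside the 21 cells of that plate with both keratins. Scd1, a desaturase that makes monounsaturated fatty acids, had a median of 2790.0 against 30 CPM on plate L. Of the 14 lipid synthesis genes 11 were detected in the median cell, against 6.0, and Plin2, which coats lipid droplets, had 2490.0 against 220 CPM. Krt79, a keratin of sebaceous and hair follicle ducts, had 710 against 0 CPM, whereas Krt17 (0 against 1920.0 CPM) and the immediate early gene Fos (10 against 310 CPM) differed in the other direction. In the 4 such cells each of plates G and E the Scd1 median was 1850.0 and 345 CPM, against 0 CPM in cells with both keratins. Trp63 had no common direction, with 220 against 310 CPM on plate L, 65 against 90 CPM on plate E and 460 against 100 CPM on plate G. As Krt5 chose these cells, the values are a description and no test was run. Summed Scd1 was 2945 CPM on plate L, 281.2 and 385 CPM on plates E and G, 217.2 CPM on plate 2 and 4.202 to 79.7 CPM on plates 1, 3 and 4, and in basal GFP+ cells it was 5746 CPM on plate L and 1694 CPM on plate G, against 0.415 to 21.8 CPM on plates 1 to 4. Over the gates, 0 of 14 lipid genes passed edgeR or DESeq2 against basal cells and 0 passed edgeR against luminal cells, with medians of -0.21 and 0.12. Of the 12 genes of the skin and sebaceous list, 4.0 were detected in the median cell without Krt5 on plate L and 2.0 in the median cell of that plate with both keratins. The sebaceous members Mc5r, Awat1 and Elovl3 are not given singly here. Calml3, Krt79 and Sprr1a reached 10 thinned reads in 77, 65 and 52 of all cells, whereas Krt10, of differentiated epidermis, did so in 1 and Krt1 in none. The list's summed level was 36.3 to 70.95 CPM on plates 1 to 4 and 748 to 1122 CPM on plates E, G and L. Its part in these values was not tested.

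The 20 cells with under 10 Krt14 reads held few basal genes, with plate medians of 2.0 to 5.0 of the 12. Their luminal genes differed by plate, with medians of 12, 14.5 and 23 of the 28 on plates E, G and L, against 10, 10 and 9.0 in cells with both keratins, and of 8.0, 5.0, 15 and 7.0 on plates 1 to 4. On plate 1, 3 of the 4 cells belonged here, and on plates 2, 3, 4, E, G and L 3, 1, 1, 7, 2 and 3 cells. A stricter count of cells with both programmes, at least 5 basal and at least 9 luminal genes with 5 thinned reads each, found 50 intermediate GFP+ cells (20.5%, 15.6 to 26.1). They were 20 of 60 on plate E, but 0 of 4, 2 of 16, 1 of 21, 2 of 19, 20 of 63 and 5 of 61 on plates 1, 2, 3, 4, G and L, where 3 of 51, 0 of 6, 1 of 28, 1 of 16, 1 of 5 and 0 of 6 basal GFP+ cells met the same count. Of luminal GFP+ cells 1 each on plates 1 and 3 did so, and of intermediate GFP- cells 2 of 6 on plate G and 1 of 6 on plate L. The counts on plates 1 to 4 were low in both gates, and plates G and L held few basal cells.

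Several genes of the intermediate gate separated the plates of batch 3 from those of batches 1 and 2, in both Cre lines. The skin keratinocyte genes Sprr1a and Calml3 had 256.3 to 280.7 and 126.6 to 227.004 CPM on plates E, G and L, against 0 to 39.97 and 5.83 to 26.4 CPM on plates 1 to 4. Krt79 had 358 to 744 against 0 to 49.3 CPM, and Krt6a 235.7 to 633 against 0 to 50.3 CPM. Vim, a filament of mesenchymal and some basal cells, went the other way, with 67.6 to 115.8 CPM on plates E, G and L and 675 to 1697 CPM on plates 1 to 4, and Fbn1 with 27.5 to 66.8 against 111.8 to 170.03 CPM. The ranges did not overlap for these 6 genes, which were set beside each other after their values were seen and were not tested. Batches 1 and 2 were read single-end and batch 3 paired-end, and batch, mice and, for plates G and L, Cre line cannot be told apart.

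Variation between intermediate cells of a plate was ranked among genes of medium detection, which leaves out Krt5 and Krt14. Among 2003 genes found in 25 to 75% of the cells on each of the 6 plates with at least 10 cells, the mean within-plate SD of log2(thinned reads + 1) was highest for the secreted chaperone Clu (2.69, against a median of 1.55), the lipoprotein lipase inhibitor Angptl4 (2.52) and the stress gene Gadd45g (2.49). Collagens Col9a3 (2.29) and Col12a1 (2.21), the Wnt ligand Wnt11 (2.26), the glycolytic enzyme Pfkl (2.25), the carbonic anhydrase Car12 (2.24), the imprinted gene Peg3 (2.22) and Klf10 (2.21) followed. The SD of Angptl4 on plates 2, 3, 4, G and L was 2.75, 2.48, 3.08, 2.175 and 2.66 in intermediate GFP+ cells. In basal GFP+ cells it was 3.15, 2.85, 3.11, 2.08 and 1.45. For Clu it was 3.50, 3.21, 1.87, 2.47 and 2.45 in intermediate and 2.91, 3.29, 2.62, 2.2 and 2.095 in luminal GFP+ cells. A wide spread of these genes was thus not particular to the intermediate gate, and the gates were not tested for it. Clu was found in 31.6 to 73.02% of the cells by plate and reached 8670.0 CPM in a cell of plate 3. Its sums were 74.5 to 956 CPM in intermediate GFP+ cells, and it was above the basal gate (2.73 ± 0.85 log2) and below the luminal gate (-3.05 ± 0.84), neither of which passed edgeR. Wnt11 was found in 26.2 to 57.9% of cells, with no read on plate 1 and 51.3 to 168.7 CPM on the other 6 plates.

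Few intermediate cells showed many cell cycle genes. At least 9 of 16, each with 5 thinned reads, were found in 10 cells (4.10%, 1.98 to 7.41), 5 of 60 on plate E, 3 of 63 on plate G, 1 of 61 on plate L and 1 of 60 on plates 1 to 4. Basal GFP+ cells met it in 1 of 28 on plate 3 and in none on plates 1, 2, 4, G and L, with 5 and 6 cells on the last 2, and luminal GFP+ cells in 1 of 18, 3 of 18, 3 of 51 and 1 of 6 on plates 2, 3, 4 and G. No cell cycle gene passed edgeR against either gate, with 14 of 16 above 0 against basal (median 1.40) and 2 of 16 against luminal cells (-2.06). Mki67, the proliferation marker, had 32.4 ± 28.5 CPM (SD, 7 plates) in intermediate, 16.99 ± 21.5 in basal and 107.06 ± 86.5 in luminal GFP+ cells. HRpos luminal genes were rare too. At least 5 of 12 were found in 10 intermediate cells (0 to 6.25% on plates 2, 3, 4, E, G and L and 1 of 4 on plate 1), no basal cell, 0 to 44.4% of luminal GFP+ cells by plate and 15 of 51 luminal GFP- cells. Their median log2 difference was 3.76 above basal and -0.93 against luminal cells over 11 tested genes, none of which passed edgeR, while DESeq2 called 6 of them higher than in basal cells. Single cells carried much of it, with 50% of the reads of Prlr, the prolactin receptor, in 6 cells and of Areg, a target of the oestrogen receptor, in 4.

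Of the 19 tested genes of the Notch pathway, the ligands Dll1 (8.60 ± 1.27, adjusted p = 0.00529, edgeR) and Jag2 (5.72 ± 0.99, adjusted p = 0.0113, edgeR) rose against luminal GFP+ cells and none fell, and none passed against basal cells (medians -0.10 and 0.20). Dll1 had 76.5, 104.5, 55.1, 79.8, 61.1, 78.7 and 22.02 CPM in intermediate GFP+ cells of plates 1, 2, 3, 4, E, G and L, and 0.653 ± 1.60 CPM in luminal GFP+ cells. The target Hes1 had 120.1, 238.9, 137.4, 160.2, 101.97, 54.6 and 46.2 CPM on these plates, against 21.8 and 16.4 CPM in the intermediate GFP- cells of plates G and L (1.25 log2, adjusted p = 0.983, edgeR). Notch1 differed little between gates (0.30 ± 0.35 to basal and 0.25 ± 0.35 to luminal cells). Of the 10 tested plasticity and mesenchymal factors, Lgr5, a Wnt-associated receptor of stem cells, rose against luminal cells (7.36 ± 1.46, adjusted p = 0.0236, edgeR; higher on 5 of 6 plates), and none passed against basal cells. Immediate early genes, which tissue digestion is known to induce, had 0 of 12 members past edgeR in either comparison (medians -0.06 and 0.27).

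Genes for early and late intermediate cells had been chosen by the study on these same cells, so that the lists are not independent evidence. Of the 16 early genes none passed edgeR against basal or luminal cells (medians 0.20 and -0.23), with Sdc1 at 0.29 ± 0.47 and Pkp1 at 0.35 ± 0.62 against basal cells. Of the 25 late genes found, 18 were above 0 against basal cells (median 0.59, none past the test), and Osbpl3 fell against luminal cells (-2.64 ± 0.48, adjusted p = 0.0141, edgeR). S100a6 of this list was higher than in basal cells on 6 of 6 plates (0.68 ± 0.37), and Tmsb4x on 5 of 6 (0.71 ± 0.34).

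Intermediate GFP- cells, sorted from the same gate of plates G and L, were compared in the same fit. With edgeR, 1 gene passed (0.00523%), 735 had an unadjusted p under 0.05, and DESeq2 called 776 genes (2.79%), 744 of them higher (2.68%) and 32 lower (0.115%) in GFP+ cells. The gene was Plce1, a phospholipase (log2 difference 10.1, adjusted p = 0.00355, edgeR), with 90.1 and 51.8 CPM in GFP+ cells of plates G and L and 0 and 0.112 CPM in GFP- cells. It was 34.9 to 492 CPM over the 7 plates, 50.3 to 566 CPM in basal and 10.7 to 197.4 CPM in luminal GFP+ cells, and without plate G no gene passed. GFP- cells of this gate held a median of 9.5 basal and 10 luminal genes on plate G, against 9.0 and 10 in the GFP+ cells of that plate, and 10 and 8.0 on plate L, against 7.0 and 8.0, and 7 of 12 (58.3%, 27.7 to 84.8) held both kinds of keratin. Acta2 was 1599 and 3155 CPM in GFP- cells, against 347 and 224.9 CPM in GFP+ cells of plates G and L (-3.76 log2, adjusted p = 0.983, edgeR). Lipid synthesis genes had 12 of 14 members above 0, against 59% of all genes (median 1.61), Scd1 at 385 and 2945 CPM in GFP+ against 9.82 and 13.2 CPM in GFP- cells, and none past edgeR.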

How the data were processed

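Single mammary cells were index-sorted and sequenced with Smart-seq2. Per the methods of the authors and the submitters' processing notes, reads were trimmed with Trim Galore 0.6.5, mapped to GRCm38 (mm10) with STAR 2.7.7a and counted per gene with HTSeq 0.13.5, single-end in batches 1 and 2 and paired-end in batch 3. The deposited tables hold raw counts per gene and cell. HTSeq's summary rows (58.6% of all entries) and spike-ins (0.214 to 8.307% of the rest by batch) were left out. Of 39154 genes, 37902 had a symbol. A cell was kept if its reads on genes exceeded 100000, its detected genes 1400, its Epcam reads were 2 or more, its Dcpp1 reads did not exceed 10 and its mitochondrial share stayed under 10%. The repeat run of 96 cells was left out. No doublet caller was run, as cells were sorted singly. Chase times and gates were read from the deposited annotation.

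Counts were summed per gate and plate with at least 3 cells, so that deep cells weigh more, and 19120 genes were tested with edgeR 4.0.16 (R 4.3.3; filterByExpr, TMM, quasi-likelihood, plate as a block, Benjamini-Hochberg, threshold 0.05), with DESeq2 1.42.0 as an alternative. All groups share 1 fit, so comparisons share the intermediate sums. The block rests on the gates of a plate coming from the same mice. Marker counts per cell were taken after thinning to 100000 reads and compared over plates with exact paired permutation tests (scipy 1.17.1). Confidence intervals are exact, at 95%. The code was tested on simulated data. Named genes were the 6 gate markers with Acta2, Kit, Epcam, Itga6 and Notch1, the 5 largest changes each way past the threshold and alike on every plate, list members with the highest levels or past the threshold, and the 10 most variable genes. The members and lists were chosen with earlier results of these data known. Alternatives changed the filter, scaling, block, tool, depth, cell minimum, Dcpp1 limit, unit or plates.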

Additional observations from a re-analysis of the deposited data

Results flagged for a closer look

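Of 48 groups of plates examined for a plate far from the others by Dixon's ratio, 6 held one. Its limit marks about 1 in 20 only for independent, normally distributed values. Many values here were skewed CPM and the groups share plates, so that no excess over chance can be read from the count. In intermediate GFP+ cells, plate 1 had the fewest basal genes per cell, 4.0 against 6.97 on the next plate, with 4 cells, of which 1 held all 5 endothelial genes. Itga6, which encodes the CD49f protein of the gates, had 27.96 CPM on plate 1 in intermediate GFP+ cells, against 192.7 CPM on the next plate. In basal GFP+ cells Itga6 had 131.01 CPM on plate 2, against 325.5 CPM on the next plate. Acta2 was highest on plate 4 in basal GFP+ cells, with 7999 against 3129 CPM on the next plate, and in luminal GFP+ cells, with 471 against 56.1 CPM. Kit had 11.5 CPM in basal GFP+ cells of plate 1 and at most 0.83 CPM on the other plates. Of 32 results compared between Cre lines, Foxc1 moved in opposite directions against luminal GFP+ cells, with a mean difference of log2(CPM + 1) of -0.999 on the SMACre plates and 0.702 on the K5Cre plates, where every plate of a line moved the same way. The difference between the lines was not tested. The SMACre plates with luminal GFP+ cells were of batches 1 and 2 and the K5Cre plates of batch 3. Line and batch therefore cannot be told apart in it.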

How the results depend on the processing

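Plates limited every test: with 5 plates the exact permutation test cannot go below p = 0.0625, and with 4 units not below 0.125. Under at least 5 cells per gate, a Dcpp1 limit of 1 read and Cre line at a chase time as unit, the differences kept their direction but could not pass, at 5.85, 4.96 and 4.62 basal genes to luminal cells, 1.94, 1.72 and 2.05 luminal genes to basal cells, -10.5, -10.1 and -9.58 luminal genes to luminal cells, and -2.19, -1.86 and -1.90 for the spread of luminal genes. Without 1 plate they ranged from 4.555 to 5.85, 1.71 to 1.94, -10.5 to -9.57 (-10.479 to -9.575) and -2.29 to -1.84. The spread of basal genes against basal cells, -0.0229, changed sign to 0.188 with 5 reads per marker, 0.031 with at least 5 cells and 0.441 without cells holding markers of other types, and was -0.389 to 0.277 without 1 plate.

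The share of tested genes that passed against luminal cells, 0.785% (150 genes), became 1.57% (570 genes) with no filter on low counts, 5.32% (1553) with DESeq2, 2.67% (365) with thinned cells, 1.37% with at least 5 cells, 0.203% (38) with the Dcpp1 limit of 1, 0.251% (58) with Cre line at a chase time as unit, 0.336% (46) in batches 1 and 2, 0.152% (24) on the K5Cre plates, and 0.144 to 1.13% (27 to 210 genes) without 1 plate. Against basal cells, 0 became 0.127% (46) with no filter, 1.91% (586) with DESeq2 and 0.0 to 0.0108% (0 to 2 genes) without 1 plate. Against intermediate GFP- cells, 1 gene became 0.185% (67) with no filter, 2.79% (776) with DESeq2, 0.021% (4) with at least 5 cells, 0.0% with that unit and 0.0 to 0.0323% (0 to 6 genes) without 1 plate. Without the replicate block by plate, 0.936% of genes passed against luminal cells, among them 70% of the 150, and the Krt5 call was lost (4.81, adjusted p = 0.0672, edgeR). Single genes that changed sign were Krt5 against basal cells (-0.009, batches 1 and 2), Krt14 against basal cells (-0.084 by unit, -0.21 in batches 1 and 2, -0.145 to 0.32 without 1 plate, lowest without plate L), Foxc1 against luminal cells (0.637, K5Cre plates) and Notch1 against luminal cells (-0.085, batches 1 and 2). The cause of these shifts was not tested. The fits by batch, by K5Cre plates and without cells of other markers were chosen after seeing the data.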
